A study of Mus musculus with 12 samples.

Results

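The mouse mitochondrial genome is a small circle that encodes 13 subunits of the respiratory chain, 2 ribosomal RNAs and 22 transfer RNAs. All rows whose gene name starts with mt- were taken from a deposited table of heart transcript levels, which gave 37 of its 55487 rows, 1 for each of these genes. The 12 libraries come from hearts of wild-type (WT) mice in 4 groups of 3. Sham mice underwent the thoracotomy without occlusion of a coronary artery and drank normal water, and Sham+B12 mice had the same sham operation and drank water with vitamin B12 at 50 mg/L for 7 days before surgery. I/R mice drank normal water and underwent ischemia/reperfusion, in which the left anterior descending coronary artery was closed for 45 min and then reopened for 24 h. I/R+B12 mice had both the vitamin and ischemia/reperfusion. Daily water intake was 4 mL, all mice were operated on under isoflurane, and the labels give neither strain nor age, nor which part of the heart was taken. Levels are FPKM, fragments scaled to the length of the transcript and the size of the library, from poly(A)-selected RNA.

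Both strands of mitochondrial DNA are transcribed as long precursors, and the tRNAs that punctuate them are cut out to release the mRNAs and rRNAs. Most mitochondrial mRNAs receive short poly(A) tails, and some end in a single T of the stop codon that the tail completes. The encoded proteins form the cores of complexes I, III, IV and V, which in heart muscle supply most of the ATP for contraction, and every other subunit is imported from the cytosol.

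The nuclear genome holds old insertions of mitochondrial DNA, and 1 of them bears on 7 of the protein-coding rows. In the GRCm38 annotation, 7 unprocessed pseudogene rows on the minus strand of chromosome 1 lie between bases 24611535 and 24616197, a span of 4663 bases. Across 4140 aligned bases they differed from the mitochondrial genes at 2 positions, and 5 of the 7 were identical over their aligned part. The starts of 4 aligned pairs are shown, because they are what a read has to tell a gene from its copy. Capitals mark a base that differs, with positions counted from 1 at the first base of the mt- gene, whose base is written first. The pair of mt-Co1 and Gm29216 differs by A1066T, and that of mt-Nd3 and Gm28438 by T3C. All are from the GENCODE M21 transcripts on GRCm38, 5′ to 3′.
mt-Co1 (chrM:6390-6419, plus strand): ggaAttgttttatccaactcatcccttgac
Gm29216 (chr1:24616159-24616188, minus strand): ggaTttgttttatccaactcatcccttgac
mt-Co2 (chrM:7013-7042, plus strand): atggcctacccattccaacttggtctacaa
Gm28661 (chr1:24615536-24615565, minus strand): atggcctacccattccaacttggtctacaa
mt-Atp6 (chrM:7927-7956, plus strand): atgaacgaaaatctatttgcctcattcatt
Gm10925 (chr1:24614622-24614651, minus strand): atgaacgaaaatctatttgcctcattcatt
mt-Nd3 (chrM:9459-9488, plus strand): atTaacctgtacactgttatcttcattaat
Gm28438 (chr1:24613090-24613119, minus strand): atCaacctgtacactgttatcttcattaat

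The other 3 copy rows are Gm28437 of mt-Co3, Gm10222 of mt-Nd4l and Gm28439, which covers 63.6% of mt-Nd4. Gm29216 covers 31.3% of mt-Co1, and the remaining rows cover 99.0% or more of their gene. The copy also spans the place of mt-Atp8, at bases 24614609 to 24614812, but only 43 of these bases lie in an annotated row. mt-Atp8, which encodes a small subunit of ATP synthase (complex V), is printed whole because the surgery comparison below turns on it. Capitals mark the 43 bases it shares with the start of mt-Atp6, the proton-channel subunit of the same complex.
mt-Atp8 (chrM:7766-7969, plus strand, GRCm38): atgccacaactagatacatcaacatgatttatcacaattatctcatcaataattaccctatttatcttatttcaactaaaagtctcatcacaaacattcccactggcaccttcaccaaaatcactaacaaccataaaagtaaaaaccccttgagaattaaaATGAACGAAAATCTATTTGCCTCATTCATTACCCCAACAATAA

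Before any comparison, the libraries labelled Sham 3, I/R 3 and I/R+B12 3 stood apart from their groups. Nppa, which encodes atrial natriuretic peptide, had 3157 FPKM in Sham 3 against 178.1 to 706.7 FPKM in the other 11 libraries, while no other listed atrial marker exceeded 13.8 FPKM anywhere. Neutrophil markers, which rise when these cells enter injured heart muscle, summed to 279.8 FPKM in Sham 3 and 7.37 to 43.42 in the other sham libraries, with 210.5 FPKM of the Sham 3 sum from Lcn2 alone. In I/R 3 they summed to 18.17 FPKM, against 280.1 to 3224 in the other I/R libraries. Among nuclear ribosomal RNA rows with a mean of at least 1 FPKM, CT010467.1 had 663.5 to 4099 FPKM over the 12 libraries. The other 28, most of them 5S genes, were at 0 in 10 libraries, so they met that mean only through I/R+B12 2 or 3. Of these 28, 27 were above 0 in I/R+B12 3, at up to 770.9 FPKM, and 4 in I/R+B12 2. Cardiomyocyte markers were high throughout, with 14 of 14 tested and a summed level of 53490 to 82490 FPKM, matching the heart label. An estimate from the spacing of low values put the depth at 24250000 to 28250000 fragments per library and the mean fragment at 250 to 275 bases. In bulk tissue, fewer cells of a type and less RNA per cell cannot be told apart.

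Of the 13 protein-coding rows, 10 were above 0 in all 12 libraries, and together these rows held 18.1 to 22.9% of the summed FPKM of a library. The 7 chromosome 1 copy rows held nearly as much, 17.6 to 21.3%, and both sets together 36.0 to 43.5%. Of the 10 highest rows of the whole table by mean FPKM, 4 were mt- rows and 6 were copy rows. The share of a copy row in the joint level of gene and copy ran from under 1% to 100%. Gm10925 held 100% of the joint level of mt-Atp6 and Gm28661 at least 99.85% of that of mt-Co2, while Gm28439 held 0.441 to 0.85% of that of mt-Nd4. In between, Gm28437 held 92.6 to 96.1% for mt-Co3, Gm10222 88.8 to 98.3% for mt-Nd4l, Gm28438 67.3 to 86.1% for mt-Nd3 and Gm29216 9.42 to 12.8% for mt-Co1. Which of a gene and its identical copy was transcribed cannot be read from these rows, so each result on these 7 genes is given for the mt- row and for the row joined with its copy.

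**Figure D1:**
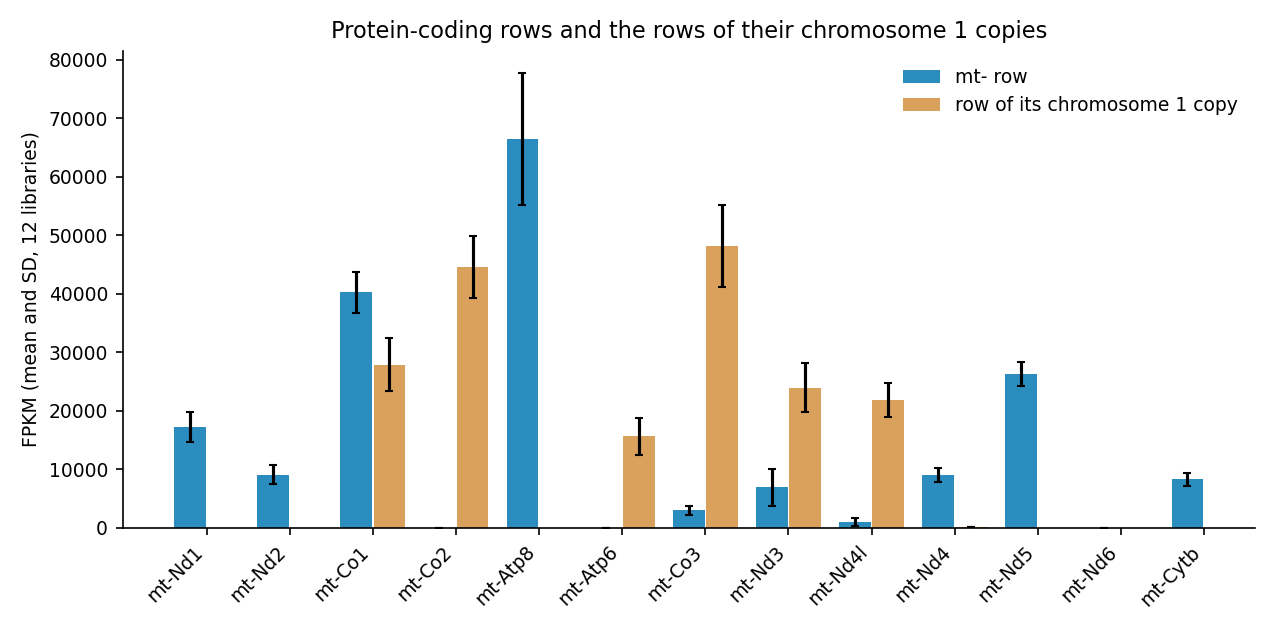
Mean FPKM (linear axis, bars with SD over 12 libraries) of the 13 protein-coding mt- rows in genome order and of the row of each chromosome 1 copy. The mt-Co2, mt-Atp6, mt-Co3, mt-Nd3 and mt-Nd4l bars are lower than those of their copies, and mt-Nd1, mt-Nd2, mt-Atp8, mt-Nd5, mt-Nd6 and mt-Cytb have no copy row there.

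Complex I, the NADH dehydrogenase that feeds electrons into the chain, has 7 mitochondrially encoded subunits. mt-Nd5 (chrM:11742-13565), a proton-pumping subunit, was the steadiest of them, from 23822 FPKM in Sham 3 to 29568 FPKM in I/R+B12 2. mt-Nd1 (chrM:2751-3707) ranged from 13321 FPKM in I/R 1 to 21549 FPKM in I/R+B12 2. mt-Nd2 (chrM:3914-4951) and mt-Nd4 (chrM:10167-11544) had almost the same mean, 9101 and 9100 FPKM, and mt-Nd2 was the higher in 6 of 12 libraries. mt-Nd5 was above mt-Nd1 in 12 of 12 libraries, and mt-Nd1 above mt-Nd2 in 12 of 12. The genes mt-Nd3 (chrM:9459-9806) and mt-Nd4l (chrM:9877-10173) varied most, 4.98-fold and 6.99-fold between their lowest and highest library. Joined with their copies, which are at 17559 to 29127 FPKM and 17044 to 26802 FPKM, the range shrank to 2.12-fold and 1.46-fold. mt-Nd6 (chrM:13552-14070), the single protein-coding gene read from the other strand, was listed at 0 in all 12 libraries.

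mt-Cytb (chrM:14145-15288), the cytochrome b of complex III and its lone mitochondrially encoded subunit, ranged from 6738 FPKM in Sham 1 to 10839 FPKM in I/R+B12 2. Complex IV, the cytochrome c oxidase that passes electrons to oxygen, is built around mt-Co1, mt-Co2 and mt-Co3. mt-Co1 (chrM:5328-6872) had 34608 to 45998 FPKM in its own row and 38956 to 51826 FPKM with its copy. mt-Co2 (chrM:7013-7696), the subunit that takes the electrons from cytochrome c, was listed at 0 in 6 libraries and at 19.12 to 67.5 FPKM in the other 6. Joined with its copy it had 38078 to 51545 FPKM, a mean beside that of mt-Co1, which was the higher of the pair in 6 of 12 libraries. mt-Co3 (chrM:8607-9390) had 2065 to 4427 FPKM alone and 39817 to 64978 FPKM with its copy. The same holds for complex V, where mt-Atp6 (chrM:7927-8607) was listed at 0 in 11 libraries and at 0.02 FPKM in Sham 3, but had 11224 to 20821 FPKM with its copy. mt-Co3, mt-Nd4 and mt-Cytb are the members annotated with an incomplete stop codon that ends in T.

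mt-Atp8 was the highest row of the table in 11 of 12 libraries, with a mean of 66390 FPKM. At 204 bases it is shorter than the estimated mean fragment, and its place in the order of levels rests on how the authors' software treated such short rows. For mt-Nd4l and mt-Nd3, at 297 and 348 bases, a fragment of the estimated mean length leaves 23 to 48 and 74 to 99 possible start positions. Among members of 400 bases or more, mt-Co3, mt-Co1 and mt-Co2 with their copies came highest, with means of 51200, 45260 and 44590 FPKM, followed by mt-Nd5, mt-Nd1, mt-Atp6, mt-Nd4, mt-Nd2 and mt-Cytb. Several neighbours in this order exchanged places between libraries. mt-Co1 was above mt-Co2, and mt-Nd4 above mt-Nd2, in 6 of 12 libraries, mt-Nd1 above mt-Atp6 in 8 of 12, and mt-Co3 above mt-Co1 and mt-Nd2 above mt-Cytb in 9 of 12.

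**Figure D2:**
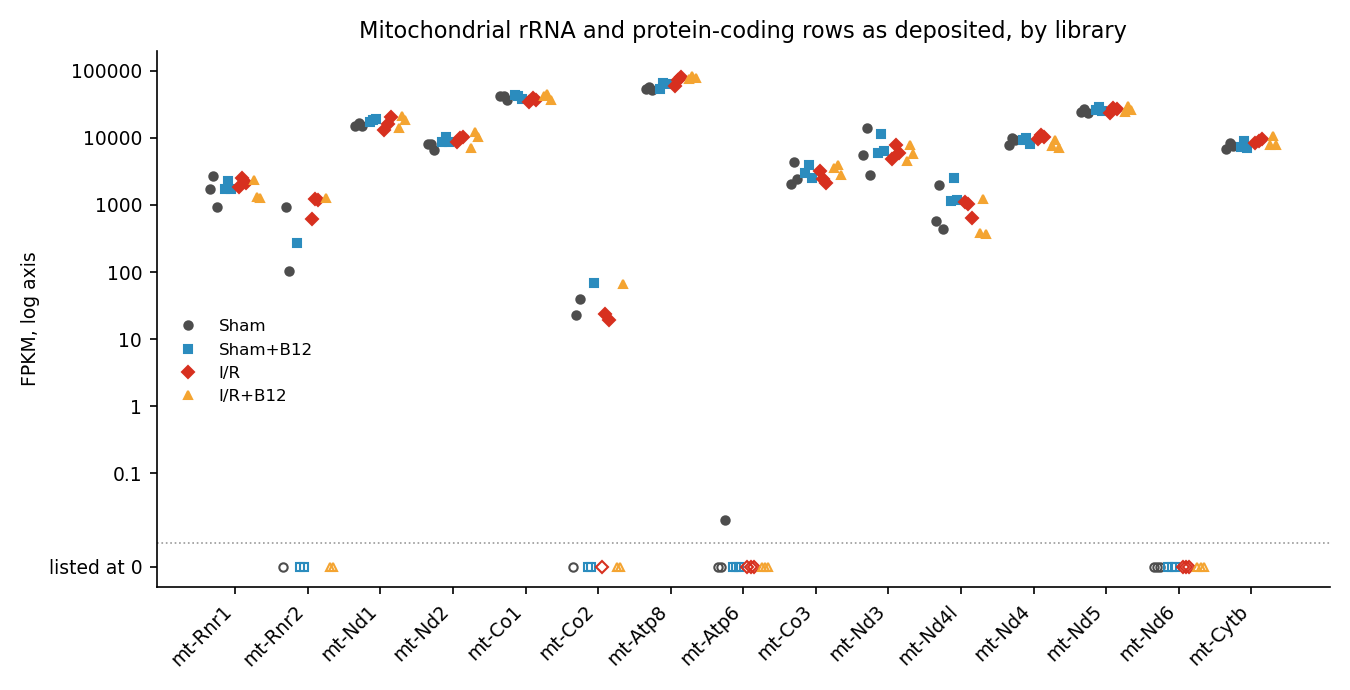
FPKM on a log axis for the 2 rRNA and 13 protein-coding rows as deposited, each point being 1 library of the Sham, Sham+B12, I/R or I/R+B12 group, with open symbols for values listed at 0. The rows of mt-Rnr2 and mt-Co2 are split between 0 and higher values within groups, mt-Atp6 and mt-Nd6 lie at or near 0, and mt-Nd3 and mt-Nd4l spread more than the longer genes.

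A row entered the tests when it had at least 1 FPKM in at least 3 libraries, which 13001 rows did, among them 13 of the 37 mt- rows (11 protein-coding and 2 rRNA). Tests used limma on log2(FPKM + 1) with Benjamini-Hochberg adjustment over all 13001 rows, and a row was called at an adjusted p under 0.05. Nothing in the labels says more of the replicates than that they are separate samples, so p-values measure the spread between these samples.

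The clearest difference with surgery was in mt-Atp8. It had 53381, 58294 and 51782 FPKM in the Sham libraries, and 54350, 65558 and 63685 FPKM in the Sham+B12 libraries. After ischemia/reperfusion it had 59214, 74057 and 80381 FPKM on normal water and 75105, 82741 and 78137 FPKM with B12. All I/R libraries lay above all Sham libraries, and all I/R+B12 libraries above all Sham+B12 libraries, although I/R 1 lay below 2 of the Sham+B12 libraries. Averaged over both kinds of water, mt-Atp8 was higher by 0.37 (SE 0.09) on the log2 scale in I/R hearts, with an adjusted p of 0.0351 by limma. It was the 1 member of 13 called in that comparison, in which 10.1% of all rows were called, of them 1087 rows higher (8.36%) and 222 lower (1.71%). That count of rows fell to 0 without Sham 1, Sham+B12 1, Sham+B12 3 or I/R 1, to 2 without I/R 2, to 287, 555 and 614 without Sham 2, Sham+B12 2 and I/R+B12 2, and rose to 2701, 2268 and 2127 without I/R+B12 1, I/R+B12 3 and I/R 3. With scaling by the median ratio, which shifts the median of all rows from 0.05 to -0.01, that split became 600 higher and 491 lower, and mt-Atp8 was 0.30 higher with an adjusted p of 0.188 by limma. With Sham 3 and I/R 3 left out its difference was 0.31 with an adjusted p of 0.074 by limma, and without I/R+B12 3 it was 0.37 with an adjusted p of 0.0272. Leaving out 1 library at a time ended the call for 9 of the 12 libraries, at adjusted p-values of 0.0506 to 0.0968 by limma, and the difference stayed positive in all 29 alternative fits.

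The 2 surgical comparisons that make up this average had similar sizes for mt-Atp8, and neither passed alone. I/R against Sham gave 0.38 (SE 0.13) with an adjusted p of 0.392 by limma, in a comparison that called 0% of all rows. I/R+B12 against Sham+B12 gave 0.37 (SE 0.13) with an adjusted p of 0.0859 by limma, in one that called 10.4% of all rows and 0 of the 13 members. The difference between them, the interaction of surgery and water, was -0.01 (SE 0.19).

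Markers of some cell types differed with surgery too. In the averaged surgery comparison, which called 8.36% of all rows higher, 5 of the 9 tested neutrophil markers were called higher, and all 9 were positive. Of 9 monocyte and macrophage markers 2 were called higher, but 4 were positive and 5 negative, with a median of -0.02. Of 8 endothelial markers 1 was called higher, with 7 positive and 1 negative. The listed neutrophil marker Ly6g did not enter the tests. It was at 0 in 5 libraries, and only I/R 1 (3.9 FPKM) and I/R 2 (2.17 FPKM) reached 1 FPKM. The 14 cardiomyocyte markers were all lower, with a median of -0.25 and 0 called, and their summed level was 73080 to 82490 FPKM in sham and 53490 to 80610 FPKM in I/R libraries. The I/R libraries with the lowest neutrophil sums were I/R 3 at 18.17 and I/R+B12 3 at 280.1 FPKM. They had 80381 and 78137 FPKM of mt-Atp8, and the other I/R libraries had 59214 to 82741 FPKM. The part of these cell types in the mt-Atp8 difference was not tested. The estimated mean fragment was 255 to 265 bases in sham and 250 to 275 bases in I/R libraries, and the part of fragment length in the mt-Atp8 difference was not tested.

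mt-Atp6 lies on the same transcript as mt-Atp8, and with its copy it had 11351, 16250 and 11224 FPKM in Sham and 12661, 16501 and 14484 FPKM in Sham+B12. I/R hearts had 14157, 17841 and 20821 FPKM and I/R+B12 hearts 14494, 20617 and 17450 FPKM. Its groups overlapped, and its averaged surgical difference of 0.36 (SE 0.14) had an adjusted p of 0.11 by limma. mt-Co1, the member with the largest own row among the longer genes, went the other way without passing, at -0.08 (SE 0.08) in its own row and -0.10 (SE 0.09) with its copy. The ratio of mt-Atp8 to mt-Co1 in FPKM was 1.24 to 1.66 in the 6 sham libraries and 1.71 to 2.16 in the 6 I/R libraries, a ratio chosen after its values were seen.

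**Figure D3:**
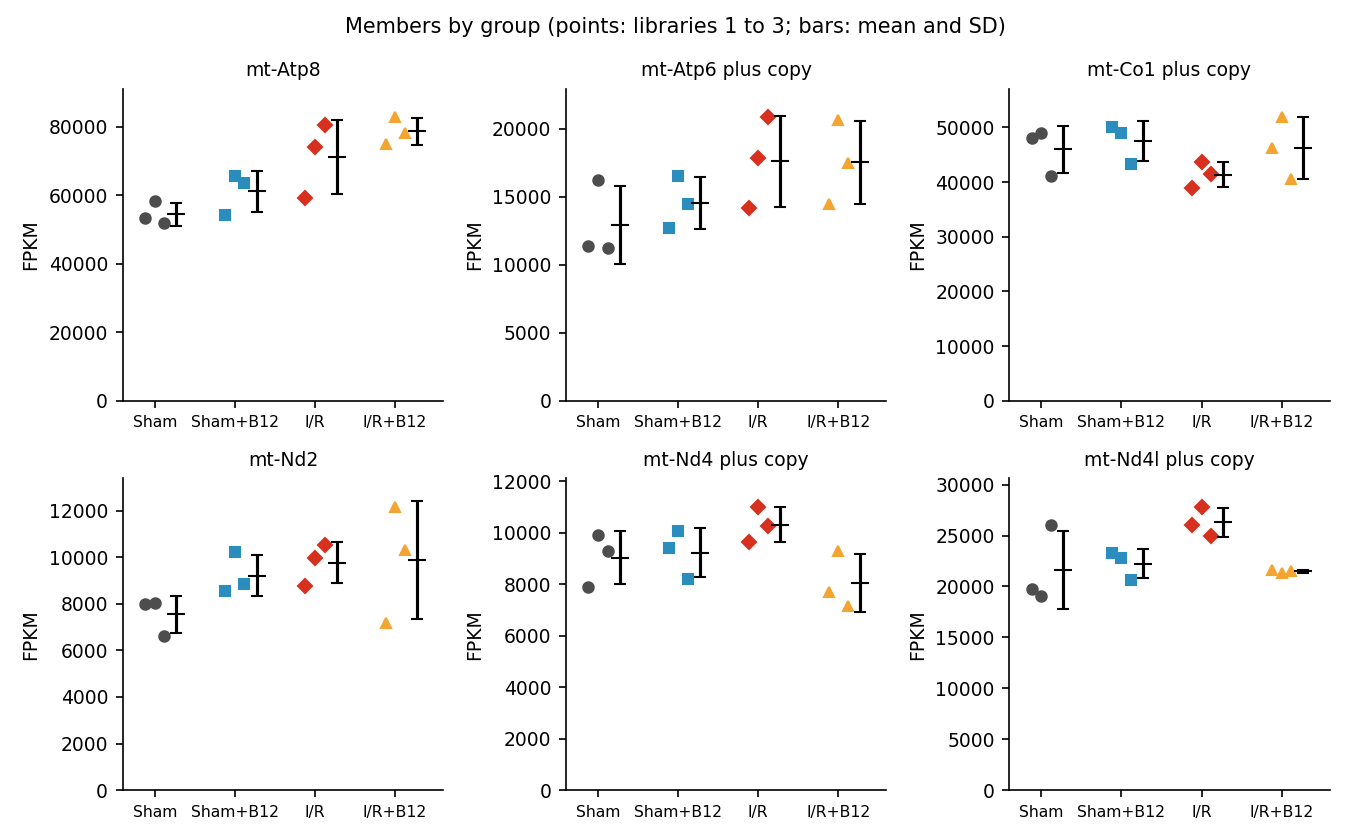
FPKM (linear axes from 0) of mt-Atp8 and mt-Nd2 as deposited and of mt-Atp6, mt-Co1, mt-Nd4 and mt-Nd4l joined with their chromosome 1 copies, with a point per library and the group mean with SD beside it. For mt-Atp8 the 3 I/R points lie above the 3 Sham points and the 3 I/R+B12 points above the 3 Sham+B12 points, while for the other members at least 1 of these pairs of groups overlaps.

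The remaining protein-coding members showed no change with surgery that passed the test. In I/R against Sham, 0 of 11 tested protein-coding rows were called, 8 were positive, and their median was 0.08 where that of all rows was 0.13. With copies joined, 11 of 12 were positive with a median of 0.14. The groups did not overlap for mt-Nd2 and mt-Atp8, 2 of the 13 tested members, where 22.4% of all rows did not overlap. mt-Nd2 had 7990, 8040 and 6624 FPKM in Sham and 8786, 9969 and 10506 FPKM in I/R, a difference of 0.37 (SE 0.18) with an adjusted p of 0.438 by limma. With Sham 3 and I/R 3 left out it was 0.22 (SE 0.23). In I/R+B12 against Sham+B12, 4 of 11 were positive with a median of -0.01, beside -0.02 for all rows, and mt-Atp8 alone of the members as deposited did not overlap, where 32.4% of all rows did not. With copies joined, mt-Nd3 did not overlap there either, with 30018, 40347 and 32072 FPKM in Sham+B12 and 29245, 26491 and 25182 FPKM in I/R+B12. That difference was -0.33 (SE 0.24), with an adjusted p of 0.356 by limma. The part of fragment length in it was not tested for this gene of 348 bases. At an unadjusted p under 0.05 limma gave 1 member between I/R and Sham, 2 between I/R+B12 and Sham+B12 and 1 in the average, where 11.7%, 32.3% and 31.3% of all rows had one. Over all 6 I/R against all 6 sham libraries, 0 of the 13 members separated, where 4.26% of all rows did.

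No member passed the test for vitamin B12. In Sham+B12 against Sham, limma called 0 of 13 members and 0% of all rows, and 0 members had an unadjusted p under 0.05. Of the 11 protein-coding rows 10 were positive, with a median of 0.14 against -0.07 for all rows. mt-Nd1 had 15123, 16819 and 15031 FPKM in Sham and 17461, 18297 and 19200 FPKM in Sham+B12, without overlap, a difference of 0.23 (SE 0.18) with an adjusted p of 0.999 by limma. mt-Nd2 had 8565, 10223 and 8847 FPKM in Sham+B12 and did not overlap with Sham either, which makes 2 of the 13 members where 10.5% of all rows did not overlap.

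Among I/R hearts, the B12 libraries had the lower mt-Nd4. It had 9608, 10965 and 10204 FPKM in I/R and 7643, 9233 and 7085 FPKM in I/R+B12, so the groups did not overlap. The difference was -0.37 (SE 0.14), or -0.36 with the copy, with an adjusted p of 0.119 by limma, in a comparison that called 0% of all rows while 23.2% did not overlap between groups. mt-Nd4l, which shares its last 7 bases with the start of mt-Nd4 on the same transcript, had with its copy 26067, 27840 and 24989 FPKM in I/R and 21600, 21327 and 21550 FPKM in I/R+B12. Those groups did not overlap either, and the difference was -0.29 (SE 0.12) with an adjusted p of 0.156 by limma. At 297 bases mt-Nd4l leaves 23 to 48 possible start positions for a fragment of the estimated mean length. That length was 260, 265 and 275 bases in I/R and 260, 250 and 260 bases in I/R+B12, and its part in the mt-Nd4l difference was not tested. With I/R+B12 3 left out, the difference of the mt-Nd4 row was -0.29 (SE 0.14) with an adjusted p of 0.273 by limma. In the row of mt-Nd4l alone the groups did overlap, at 1102, 1038 and 639 FPKM against 376, 1215 and 366 FPKM. The end of mt-Nd4l is printed with the shared bases in capitals.
mt-Nd4l (chrM:10114-10173, plus strand, GRCm38): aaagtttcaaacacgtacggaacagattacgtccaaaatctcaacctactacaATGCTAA

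Of the 11 protein-coding rows, 5 were positive in I/R+B12 against I/R, with a median of -0.01 where that of all rows was -0.21. limma gave 1 member an unadjusted p under 0.05 in that comparison, beside 28.5% of all rows. Averaged over both kinds of surgery, the B12 difference had 9 of 11 positive, a median of 0.11 against -0.14 for all rows, and 0 members called, with 0% of all rows called. Over all 6 B12 against all 6 other libraries, 0 of the 13 members separated, where 0.354% of all rows did. The interaction also called 0 members and 0% of all rows, and limma gave 0 members an unadjusted p under 0.05 in either of these last comparisons. Within the group I/R+B12, library 2 had the highest level of all 12 in mt-Nd1, mt-Nd2, mt-Co1, mt-Atp8, mt-Nd5 and mt-Cytb.

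**Figure D4:**
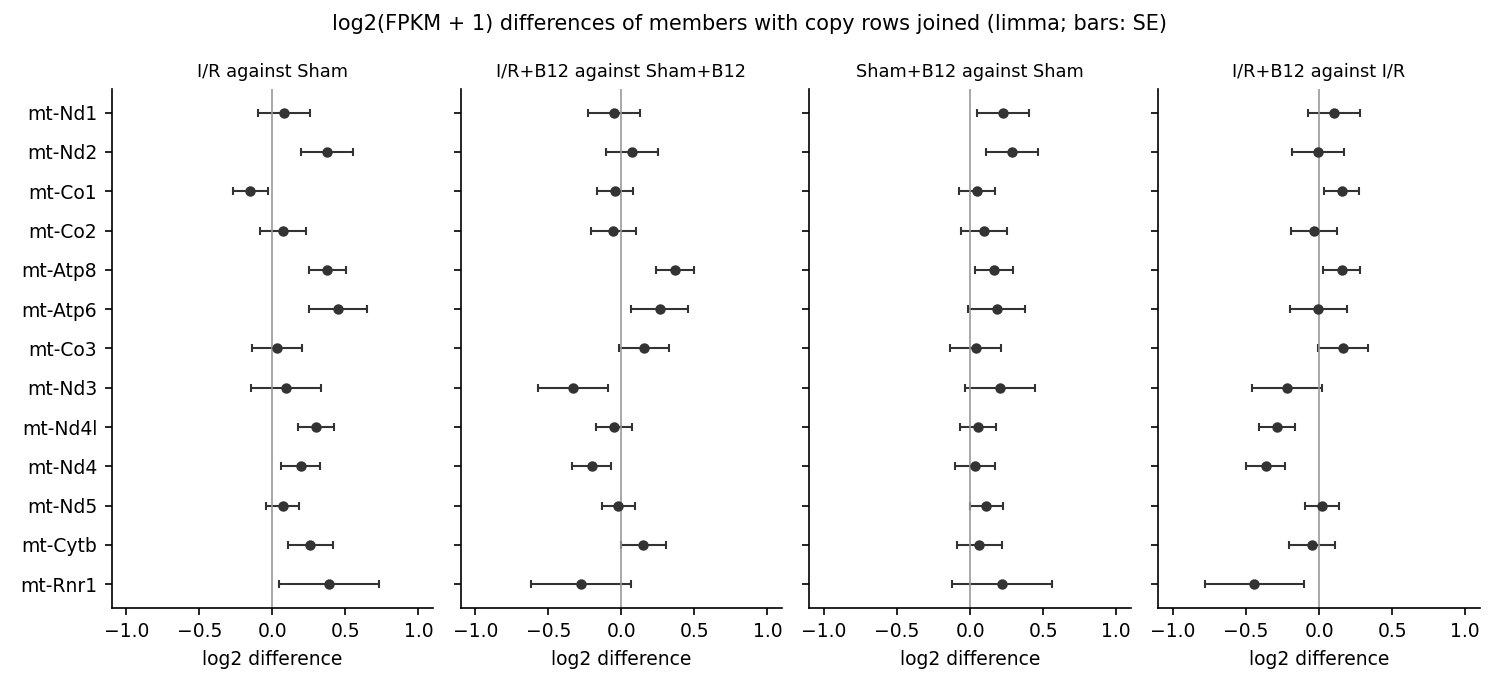
Differences in log2(FPKM + 1) with SE (limma) for 12 protein-coding members and mt-Rnr1 in 4 comparisons, with copy rows joined. mt-Atp8 is at 0.38 and 0.37 in the surgical comparisons, mt-Nd4 and mt-Nd4l are at -0.36 and -0.29 where I/R+B12 is set against I/R, and none of these single comparisons passed the test.

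Seen as shares of the summed FPKM of all members with copies, complex V took 20.1 to 23.5% in the 6 sham libraries and 23.7 to 27.6% in the 6 I/R libraries, with no overlap. Among single tested rows, 4.26% separated the same libraries, and that figure was not computed for sums of rows. mt-Atp8 made up most of the complex V share, 15.7 to 19.1% in sham and 19.1 to 22.6% in I/R libraries. As mt-Atp8, at 204 bases, is shorter than the estimated mean fragment, its weight in these shares rests on how the authors' software treated such short rows. Complex I took 29.9 to 31.3% in the I/R+B12 libraries and 33.0 to 35.0% in the other 9. With I/R 3 left out the latter range was 33.5 to 35.0%, and the highest I/R+B12 library other than I/R+B12 3 had 30.85%. The share of all rows that separate these libraries was not computed. The complex I sum includes the short mt-Nd3 and mt-Nd4l, at 348 and 297 bases. With copies they had means of 30920 and 22910 FPKM, and their weight rests on few possible start positions of a fragment. Complex IV took 37.9 to 44.1% and complex III, with mt-Cytb alone, 2.14 to 2.69%, and neither separated the groups. These shares sum over the members and were not tested.

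**Figure D5:**
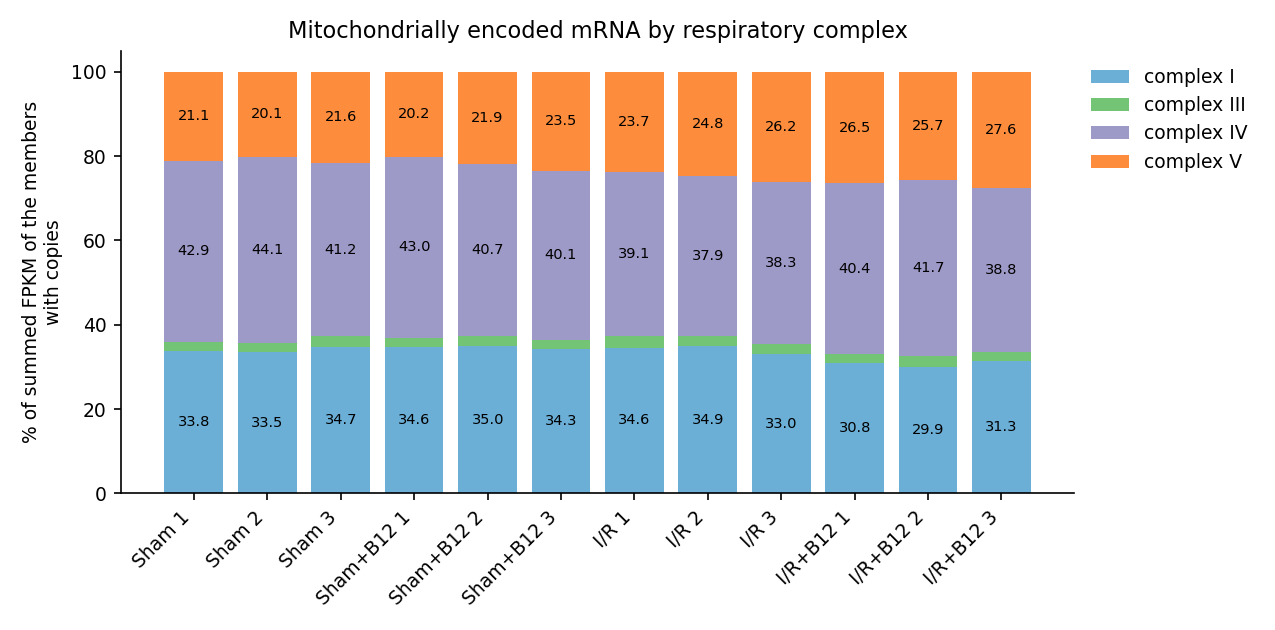
Share (%) of the summed FPKM of the protein-coding members with their copies that falls to complexes I, III, IV and V, in a stacked bar per library. The complex V part is 20.1 to 23.5% in the sham bars and 23.7 to 27.6% in the I/R bars, and the complex I part is 29.9 to 31.3% in the 3 I/R+B12 bars.

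The 2 rRNA genes, which give the RNAs of the small and large mitochondrial ribosomal subunits, held 0.121 to 0.399% of the summed FPKM in these poly(A)-selected libraries. mt-Rnr1 (chrM:70-1024) had 1714, 2723 and 942 FPKM in Sham, 1733, 2288 and 1753 in Sham+B12, 1826, 2504 and 2162 for I/R and 2332, 1311 and 1286 for I/R+B12. The groups overlapped, and the averaged surgical difference was 0.06 (SE 0.24). mt-Rnr2 (chrM:1094-2675) was listed at 0 in Sham 1, in Sham+B12 2 and 3 and in I/R+B12 2 and 3. Elsewhere it had 949 and 105 FPKM in Sham, 273 in Sham+B12, 614, 1238 and 1182 for I/R, and 1273 in I/R+B12 1. Sham 1 thus had 1714 FPKM of mt-Rnr1 beside 0 of its neighbour on the same precursor, and no fold is given for mt-Rnr2, nor for the mt-Co2 row.

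All 22 tRNA rows were listed at 0 in all 12 libraries. They encode RNAs of 59 to 75 bases, 14 on the plus and 8 on the minus strand. The table lists 2396 rows under 100 bases, of which 4 were above 0 in any library, so nearly all such short rows were at 0 here.

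The nuclear genes that serve this genome were read from lists of its transcription, RNA processing and translation. In I/R+B12 against Sham+B12, 3 of 24 tested genes of mitochondrial RNA processing and decay were called lower and 1 higher, and 3 of 19 mitochondrial aminoacyl-tRNA synthetases were called lower, in a comparison that called 6.78% of all rows higher and 3.62% lower. These calls depended on single libraries: leaving out Sham+B12 1 or Sham+B12 3 left 0 of all rows called there, leaving out Sham+B12 2 or I/R+B12 2 left 32 and 49, leaving out I/R 2 left 644, and leaving out I/R+B12 1 gave 3833. Supv3l1, the helicase of the mitochondrial RNA degradosome, fell by 0.64, from 16.56, 17.27 and 18.12 FPKM to 13.5, 8.94 and 10.23 FPKM, with an adjusted p of 0.0405 by limma. Fastk fell by 0.60 and Mrm2, a methyltransferase of the large rRNA, fell by 0.88. Pde12, a mitochondrial enzyme that removes poly(A) tails, rose by 0.52, from 1.02, 1.09 and 1.28 FPKM to 1.88, 2.36 and 1.92 FPKM. Its levels lie near the filter of 1 FPKM and the pseudocount of 1. Of the synthetases Aars2 fell by 0.75, Ears2 fell by 0.79 and Vars2 fell by 0.60, which charge alanine, glutamate and valine tRNAs. These 7 genes had adjusted p-values of 0.0333 to 0.0448 by limma. The medians of the 2 lists were -0.20 and -0.39 beside -0.02 for all rows. In the averaged surgery comparison Supv3l1 (-0.43) and Vars2 (-0.43) were called lower and Pde12 (0.40) higher. That makes 1 of 24 lower and 1 higher in the first list and 1 of 19 lower in the second. Of all rows 10.1% were called there, 8.36% higher and 1.71% lower.

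Of 15 tested genes of mitochondrial transcription and replication, 0 were called in any of the 7 comparisons. The smallest p-values belonged to Tfb1m, an rRNA methyltransferase, Tefm, the elongation factor, and Twnk, the replicative helicase. Tfb1m had 5.64, 4.55 and 5.86 FPKM in I/R and 4.31, 0.58 and 1.61 FPKM in I/R+B12, a difference of -1.18 with an adjusted p of 0.0893 by limma. Tefm and Twnk were at -0.88 and -0.62 in I/R+B12 against Sham+B12, with adjusted p-values of 0.0519 and 0.0526 by limma. I/R+B12 2, which had the highest level of 6 mt- rows, had the lowest sums of all libraries on these 3 lists, at 98.5, 452.2 and 235 FPKM. In I/R+B12 against Sham+B12, 6.78% of all rows were called higher and 3.62% lower. There, 4 of 9 neutrophil markers were called higher, and all 9 were positive. Of 8 endothelial markers 2 were called higher, with 5 positive and 3 negative. Of 9 monocyte and macrophage markers 1 was called higher, but 3 were positive and 6 negative, with a median of -0.41. Of 5 smooth muscle and pericyte markers 1 was called lower, with 2 positive and 3 negative. All 14 cardiomyocyte markers were negative, with 0 called. The part of these cell types in the list results was not tested.

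The imported subunits of the same complexes did not pass in any comparison, with 36 tested for complex I, 9 for III, 12 for IV and 15 for V. In the averaged surgery comparison their medians were -0.13, -0.09, -0.11 and -0.16 beside 0.05 for all rows, and 29 of 36, 7 of 9, 7 of 12 and 13 of 15 were negative. Of complex V, Atp5o was at -0.25 (adjusted p 0.0811 by limma), and Atp5c1 and Atp5h were at -0.16 and -0.19. The genes with the smallest p-values of complex I were Ndufs7, Ndufa3 and Ndufa10, at -0.34, -0.30 and -0.26 in the same comparison. Those of complex III were Cyc1, Uqcrc1 and Uqcrfs1, at -0.23, -0.25 and -0.20. Of complex IV, Cox4i1 was at -0.24, Cox8b at -0.27 and Cox6b1 at -0.15. Cox6b1 had 1342, 1306 and 1421 FPKM in I/R and 1718, 1682 and 1935 FPKM in I/R+B12, a difference of 0.39 with an adjusted p of 0.0794 by limma. The cardiomyocyte markers given above were lower beside these lists, and their part in the medians was not tested.

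Other insertions of mitochondrial DNA had low values. Gm13340 on chromosome 2, a copy of mt-Co1 at 97.6% identity, had 8.82 to 27.9 FPKM, and fell by 0.87 in I/R+B12 against Sham+B12 with an adjusted p of 0.0493 by limma, a call that was lost without Sham+B12 1 or Sham+B12 3. Gm13341 and Gm13339 were listed at 0 in all libraries, and Gm4076 was at most at 0.17 FPKM. The chromosome 1 rows themselves were not called in any comparison.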

How the data were processed

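RNA of 12 mouse hearts was poly(A)-selected with oligo(dT) and sequenced, per the labels' protocols. The authors deposited 1 table of FPKM per gene, with HISAT2, StringTie and mm10 named in the submitters' processing notes; versions are not given in the sources used here. The protocols name no strand-marking step. Group means in the table were not used. Depth and fragment length were estimated from low values of rows of 400 to 1000 bases, taken as whole fragments over length minus mean fragment length plus 1, and 80.3 to 86.8% came within 0.15 of a whole number. Gene names were matched to GENCODE M21, and copies were found with BLAST+ 2.17.0 (at least 95% identity over 100 bases). limma 3.58.1 in R 4.3.3 was fitted on log2(FPKM + 1), pseudocount 1, with a variance trend, on all 12 libraries as 4 groups, for rows with at least 1 FPKM in 3 libraries, with 7 contrasts each adjusted by Benjamini-Hochberg. Copy rows were joined by adding FPKM, weighted by effective length where row lengths differ by more than 3 bases. On simulated data for the averaged surgery comparison over 13001 genes, 29.9%, 73.1% and 98.5% of changes of 0.5, 1 and 2 log2 units were recovered, for I/R against Sham 10.4%, 55.2% and 92.4%, and for the same surgical comparison with B12 8.96%, 47.8% and 90.9%. Simulated without an interaction of surgery and water, 0 genes were called for it. Values were drawn for each gene alone from a normal distribution with its own mean and within-group SD, and 200 genes were changed. No effect shared by the genes of a library was simulated, so these rates do not give the power where single libraries stand apart. Every mt- row is accounted for, and of each list the 3 genes with the smallest p in any comparison and those called are named. The members and lists were chosen with earlier results of these data known, and joining the copies was chosen after seeing the data.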

Additional observations from a re-analysis of the deposited data

How the results depend on the processing

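The number of members called was 0 in 6 of 7 comparisons and 1, mt-Atp8, in the averaged surgery comparison. That count became 0 without the row filter, with median-ratio scaling, with quantile normalization, with scaling to mitochondrial mRNA (copies joined or not) and with Sham 3 and I/R 3 left out (copies joined or not). mt-Atp8 is the highest row in 11 of 12 libraries, and quantile normalization gives the highest rows of all libraries 1 value by construction. Scaling to mitochondrial mRNA moved the median of all rows there from 0.05 to -0.05. Library weights called 2 members there (mt-Atp8 and mt-Nd2), 4 between I/R and Sham (mt-Atp8, mt-Nd2, mt-Nd4 and mt-Rnr2) and 1 between I/R+B12 and I/R. For the alternative fits of this paragraph no share of all rows called is given here, so their counts are not read as a result about the members. Leaving out 1 library gave 0 to 2 in the averaged surgery comparison, 0 to 1 between I/R+B12 and I/R, and 0 to 1 in the averaged B12 comparison, in both of which mt-Rnr2 was called without I/R+B12 1. For the rest the cause was not tested. With the replicate block, I/R+B12 against Sham+B12 called 1 member (mt-Nd4l, -1.44, adjusted p 0.0366 by limma) and the other counts did not change. Same-numbered libraries correlated at a mean of 0.0145 (-0.412 to 0.391, 18 pairs) in their deviations. Other pairs correlated at a mean of -0.00874 (-0.364 to 0.312, 36 pairs). The lowest value was that of Sham 3 with I/R 3 and the highest that of I/R 3 with I/R+B12 3. With single pairs so far apart, these means cannot tell whether same-numbered libraries belong together. Of 2710 fits of single members under alternatives, 260 had the other sign, none of them called in either fit. The median share of all mt- rows, 17.8% of FPKM times length, was 20.0% of plain FPKM, 13.2% with effective lengths and, for protein-coding rows with copies, 39.6% of plain FPKM. The number of libraries, 3 per group, limits the precision, and the depth of short rows is unknown.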
